A study of Mus musculus with 7 samples.

Results

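Genes for 59 enzymes and subunits that modify histones or move nucleosomes were followed through the 5-methylcytosine (5mC) and 5-hydroxymethylcytosine (5hmC) peak lists of ATDC5 cells. A peak was counted for a gene when the authors' row carried its symbol, or when the peak overlapped the gene or the 5000 bp before its start on GRCm38. All 59 genes were found in the annotation, among 21951 protein-coding genes, and 31 of the 8949 peaks in the 4 lists fell to 20 of them.

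ATDC5 is a mouse line derived from a teratocarcinoma that forms cartilage-like cells in insulin, transferrin and selenite (ITS), and all samples here were of unmodified cells of this single line, kept with ascorbic acid and without ITS at day 0. The lists were of 5mC at day 0 (1 sample, progenitors), 5mC at day 10 (1 sample), 5hmC at day 5 (2 samples) and 5hmC at day 10 (2 samples), the later 3 groups being labelled as differentiating chondrocytes. The labels do not say whether the paired 5hmC samples came from separate cultures, and both samples of a day share 1 list. The days are those of the labels. The study's text names days 0 and 10 among those profiled but not day 5, and a later day that no label carries, so the day 5 comparisons rest on the labels alone.

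Each list gives positions and no count, fold or score per peak, so the sequencing depth is unknown and there was 1 list per mark and day. No test between lists was therefore possible, and the values are given as descriptions, with 95% Wilson intervals that cover counting error over genes or peaks only. The lists held 326 (5mC, day 0), 2401 (5mC, day 10), 2058 (5hmC, day 5) and 4164 (5hmC, day 10) peaks. The 5mC lists were cut at 3-fold and the 5hmC lists at 10-fold enrichment, so counts of 5mC and 5hmC peaks stand at unlike thresholds. The control of the peak calls is not given in the sources used here, and the study's methods describe a search for gained or lost marks, so a list may hold differences between samples and not every site of a mark. Whether a peak marks a change in RNA, and whether the cells express cartilage markers, cannot be read from peak positions.

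Histone deacetylases, demethylases, acetyltransferases and methyltransferases remove or add the acetyl and methyl groups on histone tails, while the SWI/SNF and CHD families use ATP to slide or evict nucleosomes. The polycomb repressive complex PRC2 methylates histone H3 at silenced developmental genes. In chondrocytes some of these enzymes are known partners of the factors that switch cartilage genes on and off, and 5hmC, made from 5mC by the TET enzymes, is often found in the bodies and enhancers of active genes.

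The sequences of Arid1b and Kat6b are shown first, because these were the 2 genes of the 59 with 5hmC peaks on both days. Arid1b encodes a DNA-binding subunit of the SWI/SNF complex, and Kat6b a histone acetyltransferase of the MYST family. In each sequence the CpG dinucleotides, where most DNA methylation of mouse cells is found, are in capitals, and the letters run 5′ to 3′ on the RefSeq sequence of GRCm38. The first is the Arid1b day 10 5hmC peak that lay inside a day 5 5hmC peak, the second is the central 200 bp of the closest 5mC peak of the gene, and the third is another day 10 5hmC peak of the gene. The last 2 are the Kat6b peaks that lay closest to each other across the days.
Arid1b day 10 5hmC peak in intron 4, chr17:5131830-5131976, plus strand: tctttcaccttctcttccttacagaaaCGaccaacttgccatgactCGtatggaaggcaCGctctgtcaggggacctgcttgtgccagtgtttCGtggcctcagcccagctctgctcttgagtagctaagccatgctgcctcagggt
Arid1b day 10 5mC peak in intron 3, central window, chr17:5122549-5122748, plus strand: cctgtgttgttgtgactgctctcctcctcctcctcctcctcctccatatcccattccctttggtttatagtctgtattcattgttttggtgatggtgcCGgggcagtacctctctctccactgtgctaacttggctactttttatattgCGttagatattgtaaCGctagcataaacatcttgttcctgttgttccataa
Arid1b day 10 5hmC peak in intron 2, chr17:5044032-5044247, plus strand: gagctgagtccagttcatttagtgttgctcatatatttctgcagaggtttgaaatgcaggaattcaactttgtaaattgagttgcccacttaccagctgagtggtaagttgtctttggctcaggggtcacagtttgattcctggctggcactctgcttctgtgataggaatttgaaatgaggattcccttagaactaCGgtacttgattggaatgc
Kat6b day 10 5hmC peak in intron 12, chr14:21659202-21659444, plus strand: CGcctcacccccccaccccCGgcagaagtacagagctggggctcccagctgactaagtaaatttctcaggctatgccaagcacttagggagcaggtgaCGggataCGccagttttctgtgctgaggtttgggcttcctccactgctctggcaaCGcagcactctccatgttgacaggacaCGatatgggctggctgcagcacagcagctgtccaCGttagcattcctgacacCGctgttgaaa
Kat6b day 5 5hmC peak in intron 2, central window, chr14:21602023-21602222, plus strand: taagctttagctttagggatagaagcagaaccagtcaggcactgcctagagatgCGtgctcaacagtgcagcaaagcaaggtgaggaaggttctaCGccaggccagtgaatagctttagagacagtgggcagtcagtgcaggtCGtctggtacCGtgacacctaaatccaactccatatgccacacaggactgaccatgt

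The shared Arid1b peak held 4 CpG in 147 bp and the Kat6b day 10 peak held 8 CpG in 243 bp. The Arid1b peak in intron 2 differed from both, with 1 CpG in 216 bp. The lists do not say which CpG carried the mark.

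Of the 59 genes, 20 (33.9%) had at least 1 peak in any list, and 15.9% of all protein-coding genes did. The 5mC list of day 10 touched the most of them, at a lower enrichment threshold than the 5hmC lists. It held peaks at 12 of the 59 genes (20.3%, 95% interval 12% to 32.3%), whereas 6.71% of protein-coding genes had such a peak. The day 0 5mC list held a peak at 1 gene (1.69%, 0.3% to 9%), with 0.556% of protein-coding genes as the background.

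For 5hmC, 6 genes had a peak at day 5 (10.2%, 4.74% to 20.5%) against 5.27% of protein-coding genes. At day 10, 5 genes had one (8.47%, 3.67% to 18.4%) against 8.32%. The share of chromatin enzyme genes was thus close to the background for 5hmC at day 10. The background lay below the interval for 5mC at day 10 only, and within it for the other 3 lists. This is a description and no test of an excess. The genes were chosen with earlier results of these data known, and the shares take no account of gene length.

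**Figure D1:**
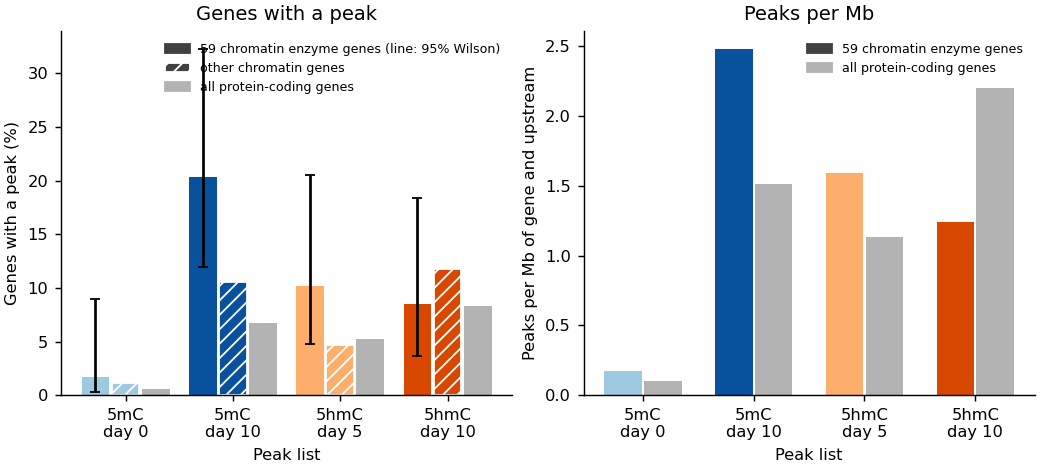
Left, the percentage of genes with a peak in each list for the 59 chromatin enzyme genes (lines, 95% Wilson interval), for 85 other chromatin genes (hatched) and for 21951 protein-coding genes (gray). Right, peaks per Mb of gene body and upstream region; the 59 genes stand above all protein-coding genes for 5mC at day 10 (2.48 against 1.51) and below them for 5hmC at day 10 (1.24 against 2.2).

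Longer genes offer more room for a peak, and these genes are long. Their median length was 62.7 kb (5.39 to 870 kb), whereas that of protein-coding genes was 17.4 kb. Counted per Mb of gene body and upstream region, the 5mC peaks at day 10 numbered 2.48 at the 59 genes and 1.51 at all protein-coding genes. The 5hmC peaks numbered 1.59 against 1.13 per Mb at day 5 and 1.24 against 2.2 per Mb at day 10. By length, the 59 genes stood above all protein-coding genes for day 10 5mC and day 5 5hmC, and below them for day 10 5hmC. The day 5 value rested on 9 peaks. Of these, 1 (Smarcd1) was matched by symbol only and 1 (Ehmt2) was assigned by the authors to another gene. For day 0 5mC the values were 0.177 against 0.106 per Mb, from 1 peak at the set. Without Arid1b, whose 3 day 10 5hmC peaks were among 7 at the set, 4 day 10 peaks (0.757 per Mb) remained, and at day 5 the 6 peaks left gave 1.13 per Mb, the same as for all protein-coding genes.

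The 4 genes with 2 or more peaks, Arid1b (353 kb), Kat6b (191 kb), Chd7 (177 kb) and Smarca2 (173 kb), were all longer than the median of the set. Some genes as long had no peak. Hdac9, a class II deacetylase and at 870 kb the longest of the 59, had no peak in any list. Chd9 (226 kb) and Hdac8 (221 kb) had none either, whereas Hdac6, of 17.8 kb, had one. The median length was 68.9 kb for the 20 genes with a peak and 61.6 kb for the 39 without, and the part of length in these counts was not tested.

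Among 13 SWI/SNF and CHD genes, 8 (61.5%) had a peak, and these genes carried 17 of the 31 peaks. Of the 46 histone modifiers, PRC2 included, 12 (26.1%) had a peak. The remodellers were also longer, with a median of 115 kb against 48.7 kb. The difference was not tested. Of the 16 SWI/SNF and CHD genes outside the set, with a median length of 31.2 kb, 2 (12.5%) had a peak, against 15.9% of all protein-coding genes. Of the 12 genes outside the set classed as ISWI and INO80 remodellers, with a median length of 91.3 kb, 5 (41.7%) had a peak.

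**Figure D2:**
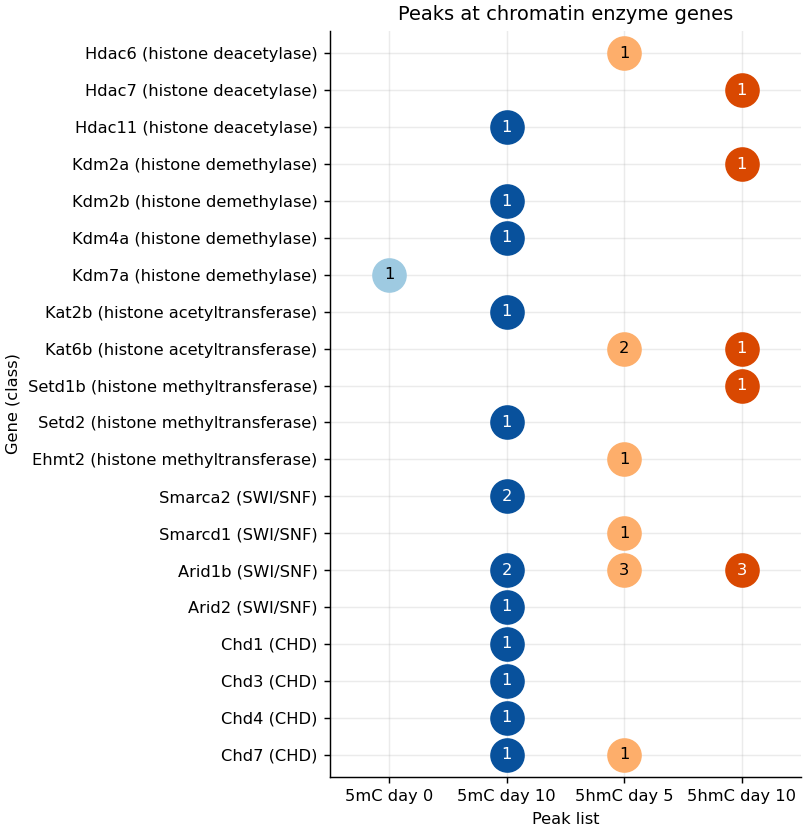
Number of peaks (in circles) at each of the 20 chromatin enzyme genes with a peak, with its class, in the 4 lists; genes without a peak are not drawn. Arid1b has peaks in 3 lists, and Kat6b and Chd7 in 2 lists each.

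Among the SWI/SNF genes, 4 of 7 had a peak in any list, against 15.9% of all protein-coding genes. Arid1b, a 353 kb gene on chromosome 17 (4994332 to 5347656, plus strand), carried 8 peaks, namely 2 of 5mC and 6 of 5hmC. It supplied 6 of the 16 5hmC peaks at the whole set (37.5%). Of all protein-coding genes, 34 (0.155%) had 3 or more day 5 5hmC peaks, 184 (0.838%) had 3 or more at day 10, and 256 (1.17%) had 2 or more day 10 5mC peaks, the numbers found at Arid1b.

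The 8 Arid1b peaks were spread along the gene and did not gather at its start. The 5mC peaks lay 13.2 kb (chr17:5006876-5008266, intron 1) and 128 kb (chr17:5122176-5123120, intron 3) from the start site. The day 5 5hmC peaks lay at 137 kb (chr17:5131313-5132257, intron 4), at 324 kb (chr17:5317757-5318440, intron 11) and at 333 kb (chr17:5327194-5328222, over coding exon 15 of 20). The day 10 5hmC peaks lay at 49.8 kb and 64.3 kb (chr17:5058552-5058734), both in intron 2, and at 138 kb in intron 4.

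Only the intron 4 site was in both 5hmC lists. There, the day 10 peak (chr17:5131830-5131976) lay inside the day 5 peak. The closest Arid1b 5mC peak ended 8.19 kb before the day 5 peak, so the 2 marks were in neighboring introns and did not meet. The other day 5 peaks were near the end of the gene, at 91.6% and 94.4% of its length, and the other day 10 peaks nearer its start, at 14.1% and 18.2%.

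**Figure D3:**
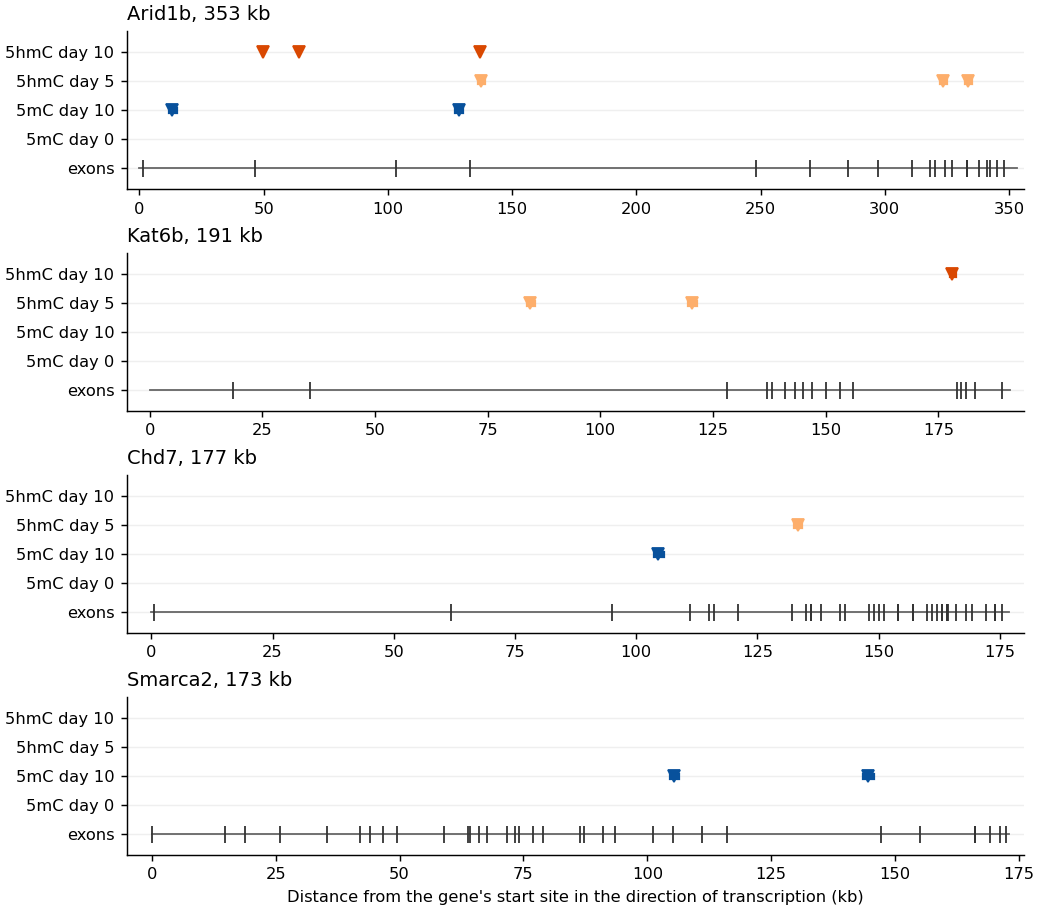
Positions of peaks (triangles at the peak's midpoint, horizontal bars for its width) along the 4 chromatin enzyme genes with 2 or more peaks, against the distance from the gene's start site in kb; vertical lines are exons of the transcript with the longest coding sequence. In Arid1b a day 5 and a day 10 5hmC peak share a position near 137 kb, whereas in Kat6b the day 10 peak stands apart from both day 5 peaks.

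Smarca2 encodes BRM, one of the alternative ATPases of SWI/SNF, and its gene (173 kb, chromosome 19) carried 2 day 10 5mC peaks and no 5hmC peak. They lay 105 kb (chr19:26710001-26710821) and 145 kb (chr19:26749546-26750678) from the start, each reaching a coding exon from an intron. The first held 25 CpG, or 3.05 per 100 bp, the highest CpG density of the 14 5mC peaks at the set. Its neighbor held 15 CpG, or 1.32 per 100 bp.

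Arid2, a subunit of the PBAF form of the complex, carried 1 day 10 5mC peak in intron 3 (chr15:96339383-96340359). That peak held 7 CpG (0.716 per 100 bp), the lowest density of the 14. Smarcd1, an accessory BAF subunit, had a day 5 5hmC row by the authors' symbol only, since the peak (chr15:99715132-99715857) began past the gene's end and over the annotated gene Gm16537. Smarca4, the other ATPase, and Smarcc1 and Arid1a had no peak.

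Among the CHD genes, 4 of 6 had a day 10 5mC peak, against 6.71% of protein-coding genes. The 3 CHD genes outside the set, Chd5, Chd6 and Chd8, had 0. Median lengths were 91.4 kb for the 6, 59.6 kb for the 3 and 17.4 kb for protein-coding genes, and the difference was not tested. Chd3 and Chd4 encode ATPases of the NuRD deacetylase complex, Chd1 binds methylated histone H3 at active genes, and Chd7 is the gene mutated in CHARGE syndrome. The Chd4 peak (chr6:125104823-125106904) was the widest at the set, with 2082 bp and 58 CpG. The Chd3 peak (chr11:69373513-69374818) was the only 5mC peak upstream of its gene, with its midpoint 4.76 kb before the start.

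The Chd1 peak (chr17:15742713-15743744) covered coding exon 17 of 36. The Chd7 5mC peak (chr4:8794291-8795318) lay in intron 3, and the gene also carried a day 5 5hmC peak in intron 8 (chr4:8823145-8823721), 27.8 kb further on. Chd7 and Arid1b were the 2 genes of the 59 (3.39%) with both marks, and 2.31% of protein-coding genes had both. Chd2 and Chd9 had no peak, although a day 10 5hmC peak lay 5.54 kb outside Chd2 and its upstream region.

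The Chd7 pair and the CpG-dense Smarca2 peak are shown to set a 5mC site beside a 5hmC site of 1 gene and beside the densest 5mC site, again with CpG in capitals and as the central 200 bp of each peak.
Chd7 day 10 5mC peak in intron 3, chr4:8794705-8794904, plus strand: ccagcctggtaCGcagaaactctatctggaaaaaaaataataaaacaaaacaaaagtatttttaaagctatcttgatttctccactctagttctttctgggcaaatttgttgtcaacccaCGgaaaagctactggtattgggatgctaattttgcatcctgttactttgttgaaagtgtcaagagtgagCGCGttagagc
Chd7 day 5 5hmC peak in intron 8, chr4:8823334-8823533, plus strand: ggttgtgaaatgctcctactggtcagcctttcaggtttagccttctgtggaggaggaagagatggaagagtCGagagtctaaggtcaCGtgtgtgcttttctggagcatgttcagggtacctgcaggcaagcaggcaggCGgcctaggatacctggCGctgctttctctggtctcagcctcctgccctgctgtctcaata
Smarca2 day 10 5mC peak at intron 24, chr19:26710312-26710511, plus strand: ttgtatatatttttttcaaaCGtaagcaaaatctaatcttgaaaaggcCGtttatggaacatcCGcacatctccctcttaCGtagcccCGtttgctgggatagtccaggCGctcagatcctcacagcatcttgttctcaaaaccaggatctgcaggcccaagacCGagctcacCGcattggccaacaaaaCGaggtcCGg

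Both Chd7 windows held 4 CpG in 200 bp and the Smarca2 window held 10. The 5mC and the 5hmC window of Chd7 thus did not differ in their number of CpG. The Smarca2 window is named by the intron at the peak's midpoint, and that peak also overlapped a coding exon.

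Among the histone acetyltransferases, 2 of 8 (25%) had a peak in any list, against 15.9% of all protein-coding genes. Kat6b (191 kb, chromosome 14, listed by the authors under its older symbol Myst4) had 5hmC on both days, which 2.54% of protein-coding genes had, as did 2 of the 59 genes (3.39%). Its 2 day 5 peaks lay in intron 2, at 84.4 kb (chr14:21565499-21566208) and 121 kb (chr14:21601732-21602513) from the start. The day 10 peak (chr14:21659202-21659444) lay at 178 kb in intron 12, 56688 bp beyond the nearest day 5 peak.

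No day 5 peak of Kat6b met its day 10 peak, which was also the more frequent case at protein-coding genes, where 29.1% of day 5 peaks met a day 10 peak. Of all protein-coding genes, 152 (0.692%) had 2 or more day 5 5hmC peaks. Kat2b, which encodes the coactivator PCAF, carried 1 day 10 5mC peak in intron 13 (chr17:53661845-53662785). Kat2a, Kat5, Kat6a, Kat7 and the coactivators Ep300 and Crebbp, known partners of SOX9, had no peak.

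Among the histone methyltransferases, 3 of 10 (30%) had a peak, each in another list, against 15.9% of all protein-coding genes in any list. Setd2, which places the trimethyl mark on histone H3 in transcribed gene bodies, had a day 10 5mC peak over coding exon 3 (chr9:110547942-110548748) with 24 CpG. Setd1b, which methylates histone H3 at promoters, had a day 10 5hmC peak of 138 bp in intron 4 (chr5:123145345-123145482), 3.22 kb from the start and also over Gm26745. The authors' row gave no symbol for it. Ehmt2, which encodes the repressive enzyme G9a, had a day 5 5hmC peak 3.12 kb upstream (chr17:34894827-34895869), which the authors assigned to Zbtb12 and which also overlapped C2.

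The Ehmt2 peak therefore lay closer to other genes than to Ehmt2, and with 58 CpG, or 5.56 per 100 bp, it was the most CpG-dense of the 31. Setd1a, Setd7, Setdb1, Suv39h2, Ehmt1, Nsd1 and Dot1l had no peak. All 5 PRC2 genes, Ezh1, Ezh2, Eed, Suz12 and Jarid2, were without a peak in each list. As 15.9% of all protein-coding genes had a peak in any list, 5 genes are too few to show a lower share.

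Among the demethylases, 4 of 12 (33.3%) had a peak in any list, against 15.9% of all protein-coding genes. Kdm2a and Kdm2b are paralogs that carry a domain binding unmethylated CpG and remove methyl groups from histone H3. Kdm2a had a day 10 5hmC peak in intron 2 (chr19:4370831-4370997) and Kdm2b a day 10 5mC peak in intron 12 (chr5:122893396-122894159), 1 peak each. The Kdm2b peak was 51.4% repeat sequence and held 0.916 CpG per 100 bp, the same as its flanks. The lists may not hold every site of a mark, so an absent peak is not an absent mark. Kdm4a, which demethylates histone H3, had a day 10 5mC peak over coding exon 11 (chr4:118160129-118160813).

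Kdm7a, a demethylase of repressive marks, had the only day 0 5mC peak at the set, over its last exon, exon 20 (chr6:39139233-39140142). The authors assigned this peak to 4930599N23Rik, which overlaps it, and repeat sequence made up 54.9% of it. Kdm1a, Kdm3a, Kdm3b, Kdm4b, Kdm4c, Kdm5a, Kdm5b and Kdm6b had no peak.

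Among the deacetylases, 3 of 11 (27.3%) had a peak, each in another list, against 15.9% of all protein-coding genes in any list. Hdac6, a largely cytoplasmic enzyme that also deacetylates tubulin, had a day 5 5hmC peak over coding exon 19 (chrX:7936682-7938210). Hdac7, a class IIa enzyme, had a day 10 5hmC peak in intron 1 (chr15:97811942-97812374). Hdac11, the class IV enzyme, had a day 10 5mC peak over coding exon 9 of 10 (chr6:91171707-91172871). Hdac1, Hdac2, Hdac3, Hdac5, Hdac8, Hdac9, Hdac10 and Sirt1 had no peak.

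For the 39 genes without a peak, the nearest peak of any list was a median of 85 kb away (5.54 to 871 kb) from the gene and its upstream region. It lay within 50 kb of 10 of them, Kdm6b (13.2 kb) and Ezh1 (17.3 kb) among them.

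By position within the gene, none of the 31 peaks had its midpoint within 2000 bp of the annotated start of its gene, which allows a share of up to 9.68%, and 8.63% of peaks at protein-coding genes did. Of the 14 5mC peaks at day 10, 7 (50%) overlapped a coding exon and 6 (42.9%) lay in introns, close to the 46.1% and 39.7% of all protein-coding gene peaks in that list. Placed by their midpoint, 4 of the 14 were in coding exons and 9 in introns. All 7 day 10 5hmC peaks lay in introns, as did 77.7% of day 10 5hmC peaks at protein-coding genes. At day 5, 5 of 9 (55.6%) were intronic and 2 (22.2%) overlapped coding exons, against 64.4% and 17.5%. At day 10, coding exons were thus met by a larger share of 5mC peaks than of 5hmC peaks when any overlap was counted. This held both at these genes and at genes in general, and the difference was not tested. Wider peaks have more room to overlap an exon. At protein-coding genes the median width at day 10 was 1014 bp for 5mC and 148 bp for 5hmC, and the part of width was not tested.

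Between the 5hmC days, 1 of the 9 day 5 peaks (11.1%, 95% interval 1.99% to 43.5%) met a day 10 peak, against 29.1% at protein-coding genes. Of the 7 day 10 peaks, 1 (14.3%, 2.57% to 51.3%) met a day 5 peak, against 17.4%. With so few peaks a difference from the background was not detectable. No 5hmC peak at the set overlapped a 5mC peak, and such overlap was rare at all protein-coding genes (1.26% of day 5 and 0.647% of day 10 5hmC peaks).

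For 5mC at day 10 and for 5hmC on both days, most peaks held more CpG than their surroundings. At day 10, 12 of the 14 5mC peaks (85.7%) held more CpG per 100 bp than the sequence 2000 bp away on both sides, and 90.2% of all peaks in that list did. For 5hmC the counts were 8 of 9 at day 5 (88.9%, against 79.2% of all peaks) and 6 of 7 at day 10 (85.7%, against 70.1%). In the day 0 5mC list 37.7% of all peaks held more CpG than their flanks, as did the 1 peak at these genes. With flanks 10000 bp away, the counts were 10 of the 14 day 10 5mC peaks. For 5hmC they were then 7 of 9 at day 5 and 6 of 7 at day 10. The median of the 14 day 10 5mC peaks was 1.81 CpG per 100 bp, below the 2.42 of the whole list.

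For 5hmC the medians at these genes were 1.48 per 100 bp at day 5 and 2.08 at day 10, against 1.61 and 1.8 in the whole lists. The peaks with no more CpG than their flanks were those of Kdm2b and the second of Smarca2 for 5mC, of Smarcd1 for day 5 5hmC, and the Arid1b peak at 49.8 kb for day 10 5hmC. Capture of 5mC rests on methyl-CpG binding, so that CpG content and 5mC capture cannot be told apart here. Widths differed by list, with medians at these genes of 1002 bp (5mC, day 10), 782 bp (5hmC, day 5) and 183 bp (5hmC, day 10), and of 1006, 819 and 147 bp in the whole lists.

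**Figure D4:**
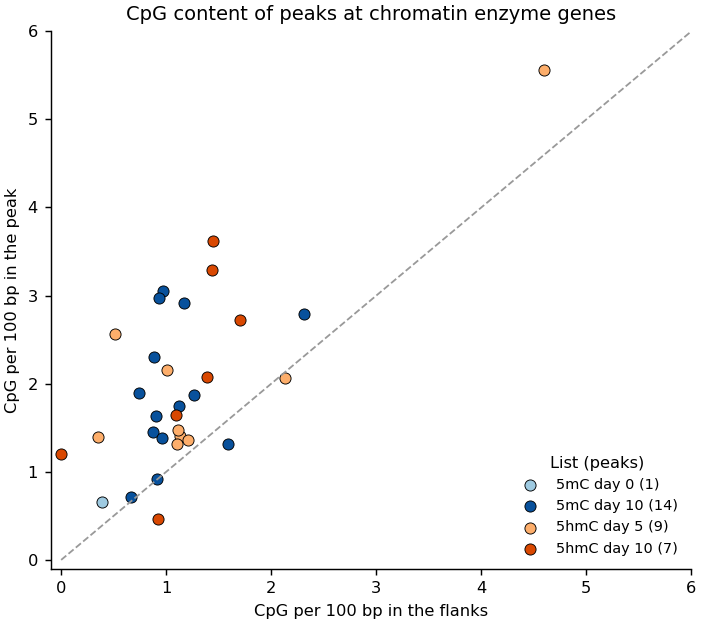
CpG per 100 bp in each of the 31 peaks (vertical axis) against its flanks 2000 bp away (horizontal axis), colored by list; the dashed line marks equal values. Most points lie above the line, and the point at the upper right, at 5.56, is the day 5 5hmC peak upstream of Ehmt2.

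The most and the least CpG-dense whole 5hmC peaks outside Arid1b and Kat6b at day 10, and the 5mC window with the most CpG, are shown next with CpG in capitals.
Setd1b day 10 5hmC peak in intron 4, chr5:123145345-123145482, plus strand: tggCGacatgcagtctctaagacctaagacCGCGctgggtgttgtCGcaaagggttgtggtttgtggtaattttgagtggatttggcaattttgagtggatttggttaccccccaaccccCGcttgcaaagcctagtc
Kdm2a day 10 5hmC peak in intron 2, chr19:4370831-4370997, plus strand: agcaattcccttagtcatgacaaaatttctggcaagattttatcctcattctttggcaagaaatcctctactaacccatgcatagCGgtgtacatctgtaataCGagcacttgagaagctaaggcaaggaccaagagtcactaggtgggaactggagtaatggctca
Setd2 day 10 5mC peak in exon 3, central window, chr9:110548246-110548445, plus strand: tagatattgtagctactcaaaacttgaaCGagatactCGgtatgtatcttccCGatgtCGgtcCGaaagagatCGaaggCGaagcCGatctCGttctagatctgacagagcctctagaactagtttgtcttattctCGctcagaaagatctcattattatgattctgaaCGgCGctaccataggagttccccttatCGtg

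The Setd1b peak held 5 CpG in 138 bp (3.62 per 100 bp, against 1.45 in its flanks). The Kdm2a peak held 2 in 167 bp (1.2 per 100 bp), and its flanks held none. The Setd2 window, within coding sequence, held 13 CpG in 200 bp.

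Short motifs of factors active in chondrocytes were searched on both strands as exact letters, AP-1 as TGAGTCA or TGACTCA, NF1 as TTGCCAAG or CTGCCAAG, and RUNX as AACCACA. No motif contains another. AP-1 letters were in 3 of the 9 day 5 5hmC peaks (33.3%), those of Hdac6, Chd7 and the exon 15 peak of Arid1b, and in 43.1% of all day 5 peaks. At day 10 they were in 0 of 7 5hmC peaks and in 7.97% of all. In windows of 200 bp at the midpoint, equal in width for both days, they were in 1 of 9 (11.1%) at day 5 and 0 of 7 at day 10. The shares of all windows were 18.7% and 9.29%. The median width of the day 10 5hmC list was 147 bp, so these windows reach past most of its peaks.

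The Arid1b window match is shown with its surroundings and the motif in capitals, because it was the only day 5 one near a peak's midpoint.
Arid1b day 5 5hmC peak in exon 15, around the AP-1 letters, chr17:5327641-5327747, plus strand: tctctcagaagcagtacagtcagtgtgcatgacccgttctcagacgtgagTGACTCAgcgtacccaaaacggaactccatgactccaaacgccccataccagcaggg

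The NF1 letters were in 2 of 9 day 5 peaks (22.2%; 14.2% of all) and 2 of 7 day 10 5hmC peaks (28.6%; 5% of all), at Kat6b and Hdac6 and at Hdac7 and Arid1b. The RUNX letters were in 1 of 9 (11.1%; 25.6% of all) and 1 of 7 (14.3%; 7.56% of all), at Hdac6 and Setd1b. Among the 14 day 10 5mC peaks, 5 held RUNX letters (35.7%; 19.8% of all), 4 AP-1 letters (28.6%; 13.4%) and 3 NF1 letters (21.4%; 9.5%). In the 200 bp windows of these 14 peaks the counts were 0 for RUNX (4.04% of all windows), 1 for AP-1 (7.14%; 2.87%) and 0 for NF1 (1.54%). A match is a description of these letters and not of a bound site, and none of these shares was tested.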

How the data were processed

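Per the file headers and the study's methods, the authors enriched DNA for 5mC (methyl-CpG binding complex) or 5hmC (glucosylation and biotin capture), checked and trimmed reads (FastQC, cutadapt), aligned them with BWA to GRCm38, kept mapping quality above 5 and called peaks with MACS 1.4.2. The deposited lists hold positions and gene symbols with at least 3-fold (5mC) or 10-fold (5hmC) enrichment, and no value per peak. The input sample was not analysed here.

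Peaks were matched by the authors' symbol, older symbols included, and by position (1-based, at least 1 bp in the gene or the 5000 bp upstream) to GENCODE mouse release 21. CpG and motifs were read from the RefSeq GRCm38 sequence in whole peaks, in 200 bp windows and in flanks of the same width 2000 bp away. Python 3.11.15 and scipy 1.17.1 were used, and the matching was checked on simulated peaks. All of the 59 genes are named, with positions for each with a peak. Other chromatin genes are named with peaks in 2 or more lists, and Pcgf5, Kmt2d, Chd5, Chd6 and Chd8 were named outside this rule. The genes and lists were chosen with earlier results of these data known. The 85 other chromatin genes were counted the same way. Alternatives covered matching, upstream distance, width, merging and windows.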

Additional observations from a re-analysis of the deposited data

How the results depend on the processing

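No paired analysis was possible because both 5hmC samples of a day share 1 list, and for the same reason no replicate could be left out. Peaks carry no score, so a stricter enrichment threshold was not run. Of 105 recomputed counts over 39 results, 85 stayed within 1.5 times and 20 did not. By the authors' symbol alone, the day 0 5mC list held 0 genes and 0 peaks. Keeping peaks at least as wide as the list's median left 7 genes and 7 peaks for 5mC at day 10, and 3 genes and 4 peaks for 5hmC at day 5. With 2000 bp upstream, 0 upstream peaks were left for 5mC at day 10 and 0 for 5hmC at day 5. By the midpoint, 4 day 10 5mC peaks were in coding exons. No gene, 0 of 59, had both marks within 1000 bp of each other. This was rare at protein-coding genes too, counted by peak. There, 22 of 1270 day 5 and 29 of 2472 day 10 5hmC peaks lay within 1000 bp of a day 10 5mC peak. Without Arid1b, a choice made after seeing the data, 4 day 10 5hmC peaks were left. In 200 bp windows, more CpG than flanks was found in 0 day 0 5mC peaks and AP-1 in 0. For 5mC at day 10 the windows held AP-1 in 1 (2.87% of all windows), NF1 in 0 (1.54%) and RUNX in 0 (4.04%). For 5hmC at day 5 they held AP-1 in 1 (18.7% of all windows), NF1 in 0 (4.62%) and RUNX in 0 (8.26%). For 5hmC at day 10 they held NF1 in 1 (5.69% of all windows). The 200 bp window holds less sequence than the 5mC and day 5 5hmC peaks at these genes, and more than most of the day 10 5hmC peaks. The cause of the other changes was not tested. With 1 to 14 peaks per list, small differences were not detectable.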

Other observations

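Of 85 other chromatin genes, counted the same way, 19 (22.4%) had a peak in any list. By list, 1 (1.18%) had 5mC at day 0, 9 (10.6%) had 5mC at day 10, 4 (4.71%) had 5hmC at day 5 and 10 (11.8%) had 5hmC at day 10. Bptf, the largest subunit of the NURF remodelling complex, had 1 peak in each of 3 lists, all but that of day 0. Smyd3, a lysine methyltransferase, had 1 day 5 and 2 day 10 5hmC peaks. Jmjd1c, a member of the JmjC demethylase family, had 1 day 10 5mC peak and 1 day 10 5hmC peak. Ep400, an ATPase of the TIP60 acetyltransferase complex, had 1 day 0 5mC peak and 1 day 10 5hmC peak. Pcgf5, a PRC1 subunit, carried 3 day 10 5mC peaks, and Kmt2d, a histone H3 methyltransferase, carried 2. Pcgf5 and Kmt2d were named after their values were seen, the other genes of this paragraph because they had peaks in 2 or more lists.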
